A study of Mus musculus with 11 samples.

Results

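Pou4f1 encodes Brn3a, the transcription factor whose gene was knocked out in this study. It was followed here through every probe set annotated with Pou4f1 as its single symbol. There was 1 such probe set (111104_at) among the 24899 of both array types, and 1 gene among the 13675 named by single-symbol probe sets. It lay on the U74Bv2 array, where it passed the filter on dim probe sets. The U74Av2 array had 0, so its arrays bear on Pou4f1 only through other genes. Trigeminal ganglia, which hold the sensory neurons of the face, were dissected from mouse embryos at embryonic day 13.5, and each array received RNA pooled by genotype from about 10 to 12 ganglia. The U74Bv2 arrays were 2 Brn3a knockout, 2 heterozygote and 1 wild-type, and the 6 U74Av2 arrays were 2 of each genotype. The knockout lacks both working Brn3a alleles, and the heterozygote keeps 1. The sources used here do not give the construct of the allele, the strain or any relation between the pools of the 2 array types, and no label names separate litters, so p-values measure the spread between these pooled arrays. Values are MAS5 signals, the array software's summary of a probe set on a linear scale in arbitrary units.

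Brn3a belongs to the class of POU factors that bind DNA through a POU-specific domain joined to a homeodomain. Sensory neurons of the cranial and dorsal root ganglia switch it on as they leave the cell cycle and keep it through differentiation. In mouse sensory neurons the protein is known to act on its own gene, and published work described a near-normal transcript level in ganglia with a single working allele. The comparisons below address how much signal remained in knockout ganglia and how high the signal stood when only 1 allele worked.

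Pou4f1 lies on chromosome 14, on the minus strand. Its start region is shown because both questions concern the output of this gene. RefSeq (GRCm38.p6) gives a promoter window of 300 bases at chr14:104467950-104468249, from 250 bases before to 50 after a start. The 131 bases at chr14:104468119-104468249, upstream of the outermost annotated start, read 5′ to 3′ on the minus strand with a TATAA match in capitals.
Pou4f1 upstream: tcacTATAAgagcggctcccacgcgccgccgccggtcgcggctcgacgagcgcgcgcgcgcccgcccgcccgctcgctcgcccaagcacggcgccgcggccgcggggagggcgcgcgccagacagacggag
The whole window was 78.3% G or C, higher than in 98.2% of all 32851 RefSeq windows (median 52.7%), and it held 57 CG pairs against a median of 7. The letters ATNANTAAT, a form of the Brn3 recognition sequence, had 0 matches on either strand, while 3.06% of all windows held at least 1. TATAA was found once on the gene's strand, and on either strand in 24.9% of all windows. These are descriptions of the letters in this window.

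The Pou4f1 signal was 549.8 and 904.3 in the knockout arrays, 2196.0 and 3570.1 in the heterozygote arrays and 3313.1 in the wild-type array. Both knockout arrays lay below all 3 others, and the lowest of the others was 2.43-fold above the higher knockout. The heterozygote arrays lay on either side of the wild-type array. Within each array, the signal exceeded that of 69.2% and 81.2% of all U74Bv2 probe sets in knockout, 95% and 98.5% in heterozygote and 97.8% in wild-type. Pou4f1 was thus among the brightest few percent of probe sets wherever a working allele was present, and in knockout it stood in the middle to upper range, at 2.12 and 3.21 times the median signal of its array.

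**Figure D1:**
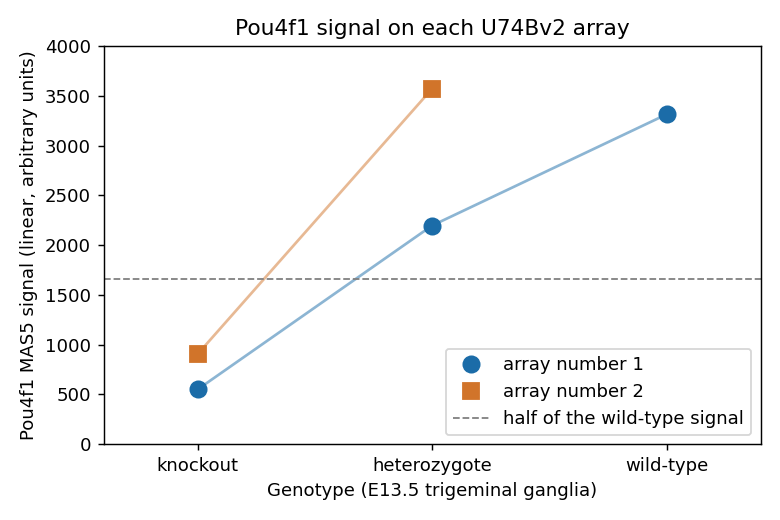
Pou4f1 MAS5 signal (vertical axis, linear, arbitrary units) on each U74Bv2 array by genotype, with circles for arrays numbered 1 and squares for arrays numbered 2, lines joining arrays of the same number, and a dashed line at 50% of the wild-type signal. Both knockout points lie under 1000, and both heterozygote points lie above the dashed line at 1657.

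Pou4f1 fell in knockout against both other genotypes. The log2 difference, on the log2(signal + 49.8) scale, was -2.15 ± 0.34 (SE) against the wild-type array, a 4.45-fold lower level (limma adjusted p = 0.0245). Against the heterozygote arrays it was -1.91 ± 0.28, or 3.77-fold lower (limma adjusted p = 0.0111). Against the 3 heterozygote and wild-type arrays together, the difference was -1.99 ± 0.25 (limma adjusted p = 0.00292). In these comparisons 1.4%, 1.71% and 2.93% of 7446 probe sets were called at an adjusted p under 0.05, and 0.927% and 1.2% were called lower against wild-type and heterozygote. The comparisons share the knockout arrays. By size, 17 probe sets fell further than Pou4f1 against wild-type and 15 fell further against heterozygote.

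With no intensity trend in the fit the adjusted p against wild-type was 0.0991, and with dim probe sets kept it was 0.111, so that call was lost under both, and the call against heterozygote was lost with dim probe sets kept (adjusted p = 0.0649). An exact permutation test of knockout against the other 3 arrays, two-sided by doubling the one-sided p, gave p = 0.2. That is the smallest value this doubling allows with 10 splits of 5 arrays.

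The signal left in knockout was a sizeable share of the normal one. Knockout averaged 727.0 ± 250.7 (SD, n = 2) and heterozygote 2883 ± 971.6 (SD, n = 2), beside 3313.1 in the single wild-type array. The 2 knockout arrays thus held 16.6% and 27.3% of the wild-type signal. Between arrays of the same number the share was nearly constant, at 25.04% of the heterozygote signal among arrays numbered 1 and 25.33% among those numbered 2. No label pairs arrays of the same number, so this holds only for that way of matching them. Detection calls were not used here, and the sources used do not say whether the probe set lies inside or outside the stretch that was deleted. Transcript left from the mutant allele and signal from other sequences therefore cannot be told apart in these values.

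The heterozygote level did not pass the test against wild-type. The log2 difference was -0.24 ± 0.34 (SE, limma adjusted p = 1), with a 95% interval from -1.01 to 0.53. That interval holds 0, which is the full wild-type level. It also holds -0.98, the difference that 50% of the wild-type signal would give, and -0.70, the midpoint between the knockout mean and wild-type. In this comparison 0% of 7446 probe sets were called on U74Bv2, with 283 at an unadjusted p under 0.05. By signal, the heterozygote arrays held 66.3% and 108% of the wild-type array. On a scale where the knockout mean is 0 and wild-type is 1, they stood at 0.57 and 1.10.

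**Figure D2:**
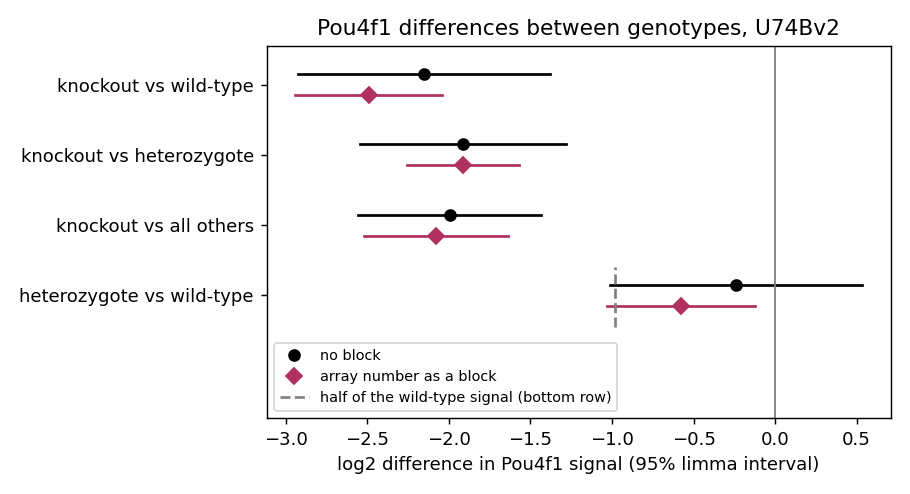
Log2 difference in Pou4f1 signal (horizontal axis) with its 95% limma interval for 4 genotype comparisons on U74Bv2, without a block (black circles) and with the array number as a block (red diamonds). The knockout intervals lie below -1.2, while the unblocked heterozygote interval spans both 0 and the dashed mark at -0.98 for 50% of the wild-type signal.

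The array number bears on the heterozygote value. Arrays numbered 2 had the higher Pou4f1 signal in both genotypes that have them, by 1.65-fold in knockout and 1.63-fold in heterozygote (0.67 and 0.69 on the log2 scale). These shifts exceeded those of 95.4% and 95.6% of the tested probe sets, whose median shifts were 0.01 and 0.02. The 2 kinds of array also differed in dim signals, since the 25th percentile of all probe sets was 73.9 in knockout, 76.5 in heterozygote and 76.0 in wild-type among arrays numbered 1, against 89.2 in knockout and 84.4 in heterozygote among arrays numbered 2. No label says what the number stands for. The only wild-type array was numbered 1. Among arrays of that number the signal was 549.8 in knockout, 2196.0 in heterozygote and 3313.1 in wild-type, so the genotypes stood in the order of their working alleles. The heterozygote held 66.3% of wild-type there (log2 difference -0.58), and stood at 0.60 between knockout and wild-type. With the number as a block, the heterozygote difference was -0.58 ± 0.22 (limma adjusted p = 0.729), with an interval from -1.03 to -0.13 that holds the 50% level and leaves out 0. That interval rests mostly on spread borrowed from other probe sets, because the blocked fit leaves these arrays little to estimate it from. Over the tested U74Bv2 probe sets, the deviations of same-numbered knockout and heterozygote arrays had a correlation of only 0.103. Without heterozygote array 1 the difference was 0.11, with an interval from -0.54 to 0.75, and without heterozygote array 2 it was -0.58, from -1.27 to 0.11. The heterozygote level relative to wild-type therefore depended on which heterozygote array was used.

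Matched by number, which no label states to be a pairing, knockout against heterozygote was -1.91 among arrays numbered 1 and -1.92 among those numbered 2. Against wild-type the value within number 1 was -2.49.

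Pan-neuronal genes moved in both directions in knockout. In bulk tissue, fewer cells of a type and less RNA per cell cannot be told apart. Of 8 pan-neuronal genes tested on U74Bv2, none was called in knockout against wild-type or heterozygote with the brightest probe set of each gene, and their median log2 differences were -0.05 and -0.04, beside 0.03 and 0.02 over all probe sets. In the same comparisons 1.4% and 1.71% of all tested probe sets were called. The brightest was Elavl2, which encodes a neuronal RNA-binding protein, with 13275.4 and 11041.3 in knockout, 8089.8 and 7802.7 in heterozygote and 7998.2 in wild-type (log2 difference from wild-type 0.60, limma adjusted p = 0.41). Next was the microtubule-associated protein gene Mapt, with 6889.8 and 7064.3 in knockout, 7456.1 and 9578.9 in heterozygote and 8052.3 in wild-type (-0.21, limma adjusted p = 0.865). Elavl3, an RNA-binding protein of postmitotic neurons, had signals of 5108.4 and 4937.4 in knockout, 5322.0 and 4785.0 in heterozygote and 5164.5 in wild-type. The summed signal of the 9 list genes on the array was 38111 to 41348 in knockout, 38527 to 39156 in heterozygote and 37777 in wild-type. Relative to the median of these genes on each array, Pou4f1 still fell, with log2 differences of -2.09 against wild-type (limma adjusted p = 0.0256) and -1.86 against heterozygote (limma adjusted p = 0.0108). Per 1000 units of the summed pan-neuronal signal, Pou4f1 had 13.3 and 23.7 in knockout, 57.0 and 91.2 in heterozygote and 87.7 in wild-type. Some dimmer probe sets passed, in opposite directions. That of Syt1, a synaptic vesicle calcium sensor, had 745.1 and 692.5 in knockout, 1759.2 and 1792.6 in heterozygote and 1522.0 in wild-type, and passed against both (log2 differences -1.03 and -1.25, limma adjusted p = 0.0453 and 0.00665). That of Elavl2 had 6450.9 and 6820.5 in knockout, 2947.9 and 2978.0 in heterozygote and 3389.4 in wild-type, and rose against heterozygote (1.15, limma adjusted p = 0.0106) but did not pass against wild-type (0.96, limma adjusted p = 0.0677). The brighter Syt1 probe set had 1941.3 and 1336.3 in knockout, 3804.1 and 2999.7 in heterozygote and 3980.0 in wild-type (-1.28 and -1.05, limma adjusted p = 0.0637 and 0.0524). With the array number as a block, the brightest probe sets of 2 of the 8 genes passed against wild-type and heterozygote, Syt1 lower (limma adjusted p = 0.00391 and 0.000197) and Elavl2 higher (limma adjusted p = 0.0473 and 0.011).

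The tissue label was borne out by sensory ganglion transcripts. On U74Av2, Isl1, the LIM homeodomain factor that accompanies Brn3a in sensory neurons, had signals of 2852.4 and 2295.7 in knockout, 3503.9 and 2649.8 in heterozygote and 2786.8 and 2999.6 in wild-type. Of 8 sensory neuron genes tested on U74Av2, 2 fell in knockout against wild-type and 0 rose, a median log2 difference of -0.82 beside 0.02 over all, where 0.255% of 7453 probe sets were called and 0.148% were called lower. These were Avil, the actin regulator advillin (log2 difference -2.72 ± 0.26 SE, limma adjusted p = 0.0125), and Runx1, a transcription factor of pain-sensing neurons (-2.06 ± 0.21, limma adjusted p = 0.0152). Both also fell against heterozygote, where 0.188% were called and 0.107% were called lower. The other way went 2 of the 8, Tlx3 (0.60) and Tac1 (0.64), higher than wild-type without passing. With the array number as a block, Prph, the intermediate filament peripherin, also passed (log2 difference -1.08, limma adjusted p = 0.0151, against 0.757 without the block). The summed signal of the 11 sensory neuron genes on the array was 11127 to 11760 in knockout, 18310 to 19273 in heterozygote and 15805 to 20686 in wild-type. On U74Bv2, which measured Pou4f1, 1 of 4 tested fell in knockout against wild-type (Runx1) and 0 rose, and the median log2 difference was -0.56, beside 0.03 over all probe sets. There 1.4% of all tested probe sets were called and 0.927% were called lower. Ntrk2 was higher there with its brightest probe set but did not pass (0.90, limma adjusted p = 0.132). The 5 genes on that array summed to 2821 to 3171 in knockout, 4859 to 5875 in heterozygote and 5142.5 in wild-type. Their part in the fall of Pou4f1 was not tested.

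Schwann and satellite glia genes summed to 16937 to 18314 in knockout, 16839 to 17614 in heterozygote and 16859 in wild-type over 3 genes on U74Bv2, of which Ngfr, the p75 neurotrophin receptor gene that neurons also express, fell. There 0.927% of all tested probe sets were called lower against wild-type and 1.2% against heterozygote. On U74Av2 none of 7 glia, 8 mesenchyme, 6 endothelial, 2 macrophage, 6 red blood cell, 4 skeletal muscle or 1 central nervous system genes tested was called in knockout against wild-type. Of all tested U74Av2 probe sets, 0.255% were called. The 8 glia genes on U74Av2 summed to 22816 to 25134 in knockout, 20544 to 21535 in heterozygote and 17931 to 20468 in wild-type. Both knockout sums were thus above the others there, unlike on U74Bv2. The mesenchyme sum was 12339 to 13733 in knockout, 10485 to 11215 in heterozygote and 9575 to 11082 in wild-type. The 6 central nervous system genes on the array summed to only 412.4 to 619.6 in knockout, 297.1 to 363.9 in heterozygote and 339.4 to 409.9 in wild-type. Whether these differences play a part in the Pou4f1 values was not tested.

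Neither of the 2 other POU genes tested was called in knockout against wild-type or heterozygote. On U74Av2, where both were tested, 0.255% and 0.188% of all probe sets were called, so 2 genes say little about the family. The list held 13 other POU genes, of which 8 had 13 probe sets on the arrays. The Brn3a paralogs Pou4f2 and Pou4f3 were not analysed here, having no single-symbol probe set. Only Pou2f3 and Pou6f1 passed the filter, both on U74Av2. Pou6f1, a POU factor of the nervous system, had signals of 372.1 and 267.0 in knockout, 444.2 and 426.0 in heterozygote and 452.7 and 425.6 in wild-type with its brightest probe set. The knockout arrays were the lowest, yet the difference from wild-type did not pass (log2 -0.42 ± 0.24 SE, limma adjusted p = 1), and another tested Pou6f1 probe set differed the other way (0.38 ± 0.28). Pou2f3 had 360.5 and 292.1 in knockout, 506.0 and 332.1 in heterozygote and 413.2 and 296.0 in wild-type, with overlap between all genotypes (-0.10 ± 0.29 against wild-type).

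The remaining POU genes were below the filter on mean level. Signals of Pou2f2, Pou3f1, Pou3f2, Pou3f3, Pou3f4 and Pou5f1 reached at most 263.6. Pou3f4, a POU factor of the developing nervous system and inner ear, had 10.2 and 10.9 in knockout, 83.0 and 74.1 in heterozygote and 35.2 and 55.3 in wild-type. The knockout arrays were the lowest, but in the fit without the filter neither the difference from heterozygote (log2 -1.09 ± 0.20, limma adjusted p = 0.221) nor that from wild-type (-0.65 ± 0.20, limma adjusted p = 0.692) passed. Pou4f1 at its lowest, 549.8 in knockout, stood at the 69.2 percentile of its array. The mean signal of these dim probe sets lay between the 12.5 and 39.7 percentile of theirs, as the filter at the 40th percentile largely fixes. By mean signal on U74Av2, the tested probe set of Pou2f3 stood at the 62.2 percentile, and those of Pou6f1 at 63.9 and 41.8.

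A list drawn up for upstream factors and partners of Brn3a was also read. Membership does not show that a gene acts before Brn3a in these ganglia, and some members may act after it, which was not tested. This list held 24 factors, including the proneural genes that specify sensory neurons and proteins that bind Brn3a. Of 15 tested on U74Av2, 1 fell in knockout against wild-type and 0 rose, where 0.255% of all probe sets were called, and the median log2 difference was 0.24, beside 0.02 over all probe sets. With the array number as a block on U74Av2, Hipk2, Neurod1, Eya2 and Neurod4 also passed, all higher in knockout, at limma adjusted p = 0.0255, 0.0283, 0.032 and 0.04. Of 7 tested on U74Bv2, 1 rose and 1 fell, where 1.4% of all were called, and with the block Sox11, a SOX factor of immature neurons, also passed, higher in knockout (log2 difference 0.83, limma adjusted p = 0.0304). Runx1 fell on both array types, with U74Bv2 signals of 476.5 and 388.1 in knockout, 2122.7 and 2597.2 in heterozygote and 2371.9 in wild-type (log2 difference from wild-type -2.33 ± 0.22 SE, limma adjusted p = 0.00317). Its heterozygote arrays stood on either side of wild-type, as those of Pou4f1 did. Neurod1, a bHLH factor of early neuronal differentiation, rose on U74Bv2, with 1419.9 and 1244.8 in knockout, 306.4 and 475.3 in heterozygote and 422.5 in wild-type (1.55 ± 0.28, limma adjusted p = 0.0391). Its probe set there is an incomplete one, and on U74Av2 the difference did not pass (1.28 ± 0.24, limma adjusted p = 0.186).

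Hipk2, a kinase known to bind Brn3a and to modulate its activity in mouse sensory neurons, did not pass on either array type without a block. On U74Bv2 it had 1518.3 and 1450.8 in knockout, 452.2 and 838.2 in heterozygote and 726.8 in wild-type (log2 difference from wild-type 0.98 ± 0.32 SE, limma adjusted p = 0.264). On U74Av2 it had 1308.2 and 968.6 in knockout, 490.3 and 438.2 in heterozygote and 304.2 and 441.8 in wild-type (1.495 ± 0.264, limma adjusted p = 0.141). Knockout arrays were the highest on both types. Klf7, a zinc-finger factor that acts with Brn3a in sensory neurons, had 4535.1 and 3973.0 in knockout, 3531.7 and 4223.8 in heterozygote and 4409.2 in wild-type with its brightest U74Bv2 probe set (-0.05 ± 0.22).

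A list of genes described elsewhere as Brn3a targets was also read. It was drawn from published work on this mutant and from cell lines, in part possibly from these arrays, so it is not independent evidence of direction. Of 14 tested on U74Av2, 4 rose (Gata3, Sst, Calb2 and Msc) and 2 fell (Rgs10 and Gal) in knockout against wild-type, where 0.255% of all probe sets were called, and with the array number as a block Nefh, a neurofilament gene, also passed (log2 difference -0.98, limma adjusted p = 0.043). Of 5 tested on U74Bv2 only Gata3 was called, and it rose, where 1.4% of all were called. In heterozygote against wild-type none of the 14 and none of the 5 was called, with median log2 differences of 0.09 on either type. Over all tested probe sets 0% were called there on either type. The survival gene Bcl2, a described Brn3a target in cell lines, had 636.5 and 725.7 in knockout, 720.1 and 775.6 in heterozygote and 870.8 in wild-type on U74Bv2 (-0.34 ± 0.22 against wild-type, limma adjusted p = 0.682). On U74Av2 its tested probe sets differed from wild-type in opposite directions (log2 0.22 and -0.20), and neither passed.

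The genes that lie beside Pou4f1 on chromosome 14 were read on both array types. Of the 10 protein-coding genes on either side in the RefSeq order, 13 had probe sets on the arrays and 10 were tested, through 14 probe sets. None was called in knockout against wild-type or heterozygote, with a lowest adjusted p of 0.34. Over all tested probe sets, 0.255% and 0.188% were called in these comparisons on U74Av2, and 1.4% and 1.71% on U74Bv2. An empty count among 14 probe sets is near those shares. Their log2 differences from wild-type ran from -0.995 to 0.66. The lowest was Ndfip2, an adaptor of ubiquitin ligases, measured on U74Av2 with 216.9 and 321.1 in knockout, 273.5 and 409.7 in heterozygote and 493.5 and 674.2 in wild-type. Its knockout arrays overlapped the heterozygote ones and lay below wild-type, and with the array number as a block it passed against wild-type (limma adjusted p = 0.032, against 0.639 without the block). Spry2, an inhibitor of receptor tyrosine kinase signalling, had 2492.0 and 1860.5 in knockout, 3212.3 and 2565.2 in heterozygote and 3456.3 in wild-type on U74Bv2, with both knockout arrays lowest (log2 difference from wild-type -0.67, limma adjusted p = 0.34). Obi1, a ubiquitin ligase gene and the next gene on one side, had 1135.8 and 1232.8 in knockout, 1133.5 and 998.7 in heterozygote and 1143.4 in wild-type. Ednrb, the endothelin receptor gene on the other side, had 14125.5 and 11365.3 in knockout, 11096.0 and 10995.7 in heterozygote and 11210.5 in wild-type on U74Bv2, from a probe set type that can match related transcripts.

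Among 6740 other named probe sets tested on U74Bv2, those nearest to Pou4f1 in pattern were found by the root mean square distance between log2 profiles centred over the 5 arrays. The median distance was 1.05 on the log2 scale. The nearest was Igf1, an insulin-like growth factor, at 0.20, with signals of 92.8 and 127.9 in knockout, 386.6 and 561.9 in heterozygote and 482.8 in wild-type. It shared with Pou4f1 the higher signal of arrays numbered 2 within both genotypes, which a choice by pattern over the same arrays favours. The potassium channel gene Kcna1 followed at 0.24, with 136.7 and 215.3 in knockout, 814.6 and 857.8 in heterozygote and 763.0 in wild-type. Next came the lipid kinase gene Dgkh at 0.29, Ssc5d at 0.30, the tyrosine phosphatase gene Ptpn3 at 0.31 and the exocyst gene Exoc6 at 0.33. Kcna1, Ssc5d and Exoc6 also had the higher signal in arrays numbered 2 of both genotypes. In all 6 the knockout arrays were below the other 3, which follows from choosing them by pattern. This Igf1 probe set passed against heterozygote (limma adjusted p = 0.0206) but not against wild-type, although another Igf1 probe set was called lower there. Exoc6 passed neither comparison, and the others passed both. All 6 are described by 5 arrays only, and Pou4f1 was brighter than Igf1 in each.

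The 3 genes nearest to the mirror image of the Pou4f1 profile were Chl1, an L1-type adhesion molecule, at a distance of 0.27, the homeobox gene Irx1 at 0.27 and the globin gene Cygb at 0.37. Chl1 had 934.4 and 865.5 in knockout, 307.5 and 178.6 in heterozygote and 263.7 in wild-type. It passed against heterozygote (limma adjusted p = 0.0128) but not against wild-type, while Irx1 and Cygb passed both. Irx1 had 973.8 and 1009.9 in knockout, 240.2 and 193.4 in heterozygote and 206.1 in wild-type.

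**Figure D3:**
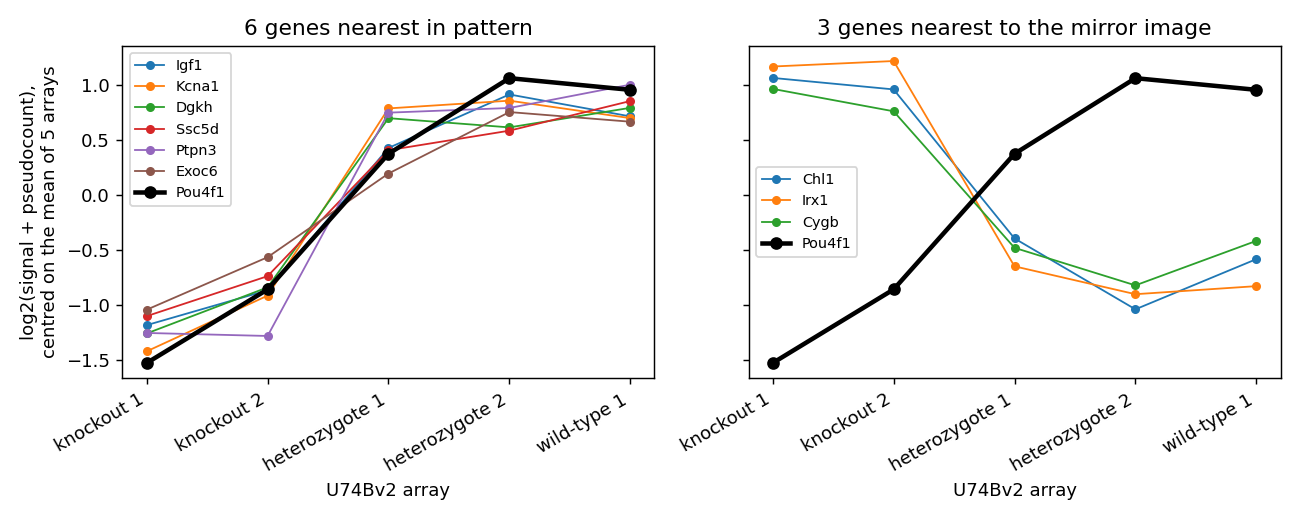
Centred log2(signal + 49.8) (vertical axis) on the 5 U74Bv2 arrays (horizontal axis) for Pou4f1 in black and, on the left, the 6 genes nearest in pattern, on the right the 3 nearest to its mirror image. All lines on the left step up between the knockout and the other arrays. Between the heterozygote arrays numbered 1 and 2, Pou4f1 rises, and Igf1 and Exoc6 rise most among the 6.

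The heterozygote level of Pou4f1 was set beside that of the transcripts that depend on genotype. For each of the probe sets called in knockout against wild-type, the heterozygote mean was placed on the log2 scale between knockout at 0 and wild-type at 1. The Pou4f1 positions given earlier were on linear signal and are not comparable with these. For a probe set lower in knockout, a level midway in signal lies above 0.5 on the log2 scale. A position above 0.5 therefore does not show more than the midway signal. Those called lower on U74Bv2, 0.927% of the probe sets tested, had a median position of 0.91 over 69 probe sets (quartiles 0.81 and 1.00), with 67 of the 69 above 0.5. Pou4f1, which is 1 of these 69, stood at 0.89, and 24 of the 68 others stood lower. With arrays numbered 1 alone, Pou4f1 stood at 0.77, where the median was 0.93 and 7 of the 68 others stood lower. The 35 probe sets called higher had a median position of 0.79. On U74Av2 the medians were 0.97 for 11 probe sets called lower and 0.87 for 8 called higher. The positions use the same arrays that chose the probe sets, and on U74Bv2 they rest on a single wild-type array, so they are a description.

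**Figure D4:**
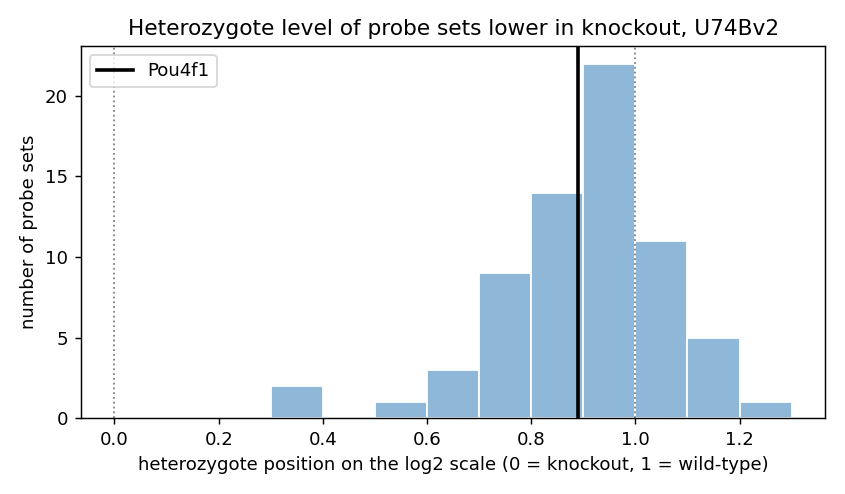
Number of U74Bv2 probe sets (vertical axis) by the position of the heterozygote mean on the log2 scale (horizontal axis, 0 for knockout and 1 for wild-type) for the 68 probe sets other than Pou4f1 that were called lower in knockout than in wild-type. The black line marks Pou4f1 at 0.89, close to the median of 0.91.

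In heterozygote against wild-type no probe set past the filter was called, 0% of 7453 on U74Av2 and 0% of 7446 on U74Bv2 by limma, with 52 and 283 at an unadjusted p under 0.05. On U74Bv2, 7 were called with the array number as a block and 10 without knockout array 1. Simulated log2 changes of size 1 in this comparison were recovered in 31% of cases on U74Av2 and 51% on U74Bv2, so changes of that size could be missed.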

How the data were processed

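Pou4f1 and the gene lists were chosen with earlier results of these data known. The authors deposited microarray intensities, 1 signal per probe set, and the submitters' processing notes name MAS5. Its version and its scaling target were not stated in any label or header used. The 2% trimmed means lay between 497.61 and 498.38 on U74Bv2 and between 500.26 and 500.29 on U74Av2, so no scaling was added. With so few arrays, their number sets the precision. Symbols came from the platform annotation, with 10581 single-symbol probe sets on U74Bv2 and 10855 on U74Av2.

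Tests used log2(signal + pseudocount), where the pseudocount was 49.8 on U74Bv2 and 50.0 on U74Av2, which understates changes of dim probe sets. Control probe sets (66 on U74Av2, 0 on U74Bv2) and probe sets at or below the 40th percentile of mean log2 were left out. All arrays of a type were fitted with genotype in limma 3.58.1 (R 4.3.3), with an intensity trend and Benjamini-Hochberg adjustment, two-sided. The lone wild-type U74Bv2 array was assumed to vary like the others. The design rows for Pou4f1 on U74Av2 had no probe set to fit. Plots used Python 3.11.15 and matplotlib 3.10.9.

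The text names Pou4f1, the measured POU genes, members of the other lists that were called or otherwise the brightest, genes nearest in pattern, and the nearest neighbours. Elavl3, Syt1, dimmer Elavl2, Bcl2, Hipk2, Klf7, Isl1, Ndfip2, Spry2, Pou3f4 and genes called only with the block were picked for their role or after their values were seen. Simulated data with 7446 probe sets for heterozygote against wild-type on U74Bv2 gave back 51% of 335 seeded log2 changes of size 1 and 97% of size 2, and for knockout against heterozygote 72.8% and 99.4%. With 7453 probe sets on U74Av2, changes of size 1 were recovered in 28.7% for knockout against wild-type, 26.3% for knockout against heterozygote and 31% for heterozygote against wild-type. Alternatives covered the pseudocount, filter, trend, scaling, arrays in the fit, the array number as a block and each array left out. On U74Av2 same-numbered arrays deviated together in all 3 genotype pairs (correlations of deviations 0.533 to 0.619). On U74Bv2 the only correlation was 0.103. That value gives little ground for the block on U74Bv2. Blocked values are given for both types beside some of the list results they change, mostly against wild-type. Others that passed only with the block include, against heterozygote, Scn9a and Hipk2 on U74Bv2 and Calb2 on U74Av2. Against wild-type, Syt1 on U74Av2 did so too. Coordinates come from RefSeq.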

Additional observations from a re-analysis of the deposited data

How the results depend on the processing

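Pou4f1 was lower in knockout in every alternative run. Past the threshold were 11 of 13 alternatives against wild-type, 13 of 14 against heterozygote and 13 of 13 against all other arrays. The exceptions were -2.15 against wild-type without the filter (limma adjusted p = 0.111) and without the trend (0.0991), and -1.91 against heterozygote without the filter (0.0649). Leaving out single arrays gave -2.49 to -1.82, -2.26 to -1.57 and -2.33 to -1.66 in the same order. Leaving out the lone wild-type array removes its comparisons. The heterozygote difference from wild-type ran from -0.58 to 0.11, turning to 0.11 without heterozygote array 1. Its interval held 0 in 12 of 13 alternatives and the 50% level in 7. The cause of these changes was not tested.

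With the array number as a block, the Pou4f1 differences were -2.49, -1.91 and -2.08 against wild-type, heterozygote and all others (limma adjusted p = 9.21e-07, 2.23e-07 and 0.00195), and -0.58 for heterozygote against wild-type (0.729). The blocked fit leaves the U74Bv2 arrays little from which to estimate a spread. These small p-values rest mostly on spread borrowed from other probe sets, so they are not stronger evidence than the unblocked ones. The block called 216, 317 and 7 U74Bv2 probe sets in knockout against wild-type, knockout against heterozygote and heterozygote against wild-type, and 130 and 129 on U74Av2 in the first 2 of these. U74Bv2 knockout counts against wild-type and heterozygote were 21 and 54 without the filter and 40 and 81 without the trend. Fitting only 2 genotypes gave 164 for knockout and 2 for heterozygote against wild-type. Scaling to pan-neuronal genes gave 26 on U74Av2 for knockout against heterozygote. Without single arrays, U74Bv2 counts were 115 to 178 for knockout against wild-type, 130 to 188 against heterozygote, 112 to 202 against all others and 0 to 10 for heterozygote against wild-type. On U74Av2 they were 0 to 15 and 0 to 11 for knockout against wild-type and heterozygote, with 0 in both without knockout array 1. No Pou4f1 alternative could be run on U74Av2.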
